A study of Mus musculus with 12 samples.

Results

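Lipopolysaccharide (LPS) was given to mouse macrophages that had first been stressed with tunicamycin, and the comparison shows which genes it still raised and lowered there. It sets the 3 libraries of cells given tunicamycin and then LPS against the 3 libraries of cells given tunicamycin without LPS, which are 6 of the 12 RNA-seq libraries of the study. The libraries were chosen by their labels, and of 24346 genes in the table the 10311 with at least 1 FPKM (fragments scaled to the length of the transcript and the size of the library) in at least 3 of the 12 libraries were tested. The cells were bone-marrow-derived macrophages of WT genotype, differentiated from marrow cells over 7 days with the growth factor M-CSF and 10% serum. The group with both agents received tunicamycin at 5 ug/ml for 3 h before LPS at 1 ng/ml for 3 h. The tunicamycin group received tunicamycin at the same dose and no LPS. The other groups, control (no agent) and LPS alone, also have 3 libraries each and serve here only to show where the response differed. The sources used here do not give the exposure time of the group without LPS, nor whether the medium still held tunicamycin while LPS was present. A difference in time after tunicamycin and the effect of LPS therefore cannot be told apart in this comparison. The labels do not say whether replicates came from separate mice or cultures. The p-values therefore measure only the spread between these libraries, which may be technical.

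LPS is the outer-membrane glycolipid of Gram-negative bacteria and is bound by CD14 and by the receptor complex of TLR4 and MD-2. One signalling branch, through MyD88, leads to NF-kB and to MAP kinases and turns on cytokine and chemokine genes, and another, through TRIF, leads to IRF3, to interferon beta and then to interferon-stimulated genes. Many of the early targets are inhibitors that shut the same pathways down again. Tunicamycin blocks the first step of N-linked glycosylation, so that unfolded glycoproteins collect in the endoplasmic reticulum (ER) and switch on the unfolded protein response through the sensors PERK, IRE1 and ATF6. TLR4, MD-2 and CD14 are themselves N-glycosylated.

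Summed FPKM was 561108 to 563002 in the tunicamycin libraries and 601943 to 666042 with both agents. Read depth is not known from such values. Pearson's r of log2(FPKM + 1) over genes was 0.973 to 0.976 between the 3 libraries with both agents and 0.981 to 0.986 between those with tunicamycin alone. None of the 10 macrophage markers examined was at 0 in all libraries of any of the 4 groups, which also held for the 10 stromal markers. The macrophage identity given in the labels was borne out by the summed level of the macrophage markers. This level was 19977 to 23644 FPKM under tunicamycin and 16636 to 25773 with both agents. The 11 neutrophil markers summed to 29.2 to 49.4 FPKM and 34.5 to 49.1 FPKM in the same groups, and the 10 stromal markers to 32.4 to 54.9 FPKM and 28.8 to 63.3 FPKM. The 9 T and NK cell markers summed to 0.180 to 2.15 FPKM under tunicamycin and 0.713 to 0.974 FPKM with both agents, and the 8 B and plasma cell markers to 1.15 to 2.66 FPKM and 0.296 to 1.13 FPKM. The 9 erythroid and mast cell markers summed to 0.617 to 1.07 FPKM and 0.0502 to 0.560 FPKM, and the 7 dendritic cell markers to 1.62 to 4.03 FPKM and 2.55 to 3.99 FPKM. Of these, Cd8a, Ncr1 and Klrb1c (T and NK cells), Ms4a1 and Pax5 (B cells) and Cpa3 (mast cells) were listed at 0 in all 6 libraries, while others, such as Cd3d, Nkg7 and Jchain, were not. In such bulk samples, fewer cells of a type and less RNA per cell cannot be told apart.

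In tunicamycin-treated cells LPS raised the cytokines Il1b, Tnf and Il1a, the chemokines Ccl4 and Cxcl2 and the enzyme gene Irg1 by more than any other gene tested, and lowered the receptor genes Cd300lb and Il21r and the iron exporter gene Slc40a1. Of 10311 genes tested, 1618 (15.7%) passed the test, 896 higher (8.69%) and 722 lower (7%). The test was limma's moderated test on log2(FPKM + 1), with Benjamini-Hochberg adjustment over all genes tested and a threshold of 0.05 on the adjusted p. A change of at least 2-fold on the log2(FPKM + 1) scale was found in 602 of them (5.84%), 374 higher (3.63%) and 228 lower (2.21%). Values of the 6 libraries did not overlap between the groups for 3272 genes (31.7%). With quantile normalization the split was 769 higher and 943 lower, so that higher calls made up 44.9% instead of 55.4%, and the median difference over all genes moved from -0.01 to -0.06. Leaving out tunicamycin replicate 2 or 3 gave 410 or 454 lower genes.

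Most of the genes that LPS induced in cells without tunicamycin also rose in stressed cells, among them Tnf, Il1b, Cd14 and Nfkbia. In the cells without tunicamycin 1894 of the same genes (18.4%) passed, 1084 higher (10.5%) and 810 lower (7.86%). Of the 538 genes (5.22%) that rose at least 2-fold there, 401 (74.5%) also passed as higher in tunicamycin-treated cells, beside 8.69% of all genes tested, 137 did not pass and 0 passed as lower. Their median log2 change was 1.60 without tunicamycin, the comparison that chose them, and 1.12 with it. Starting from the stressed cells, 326 of the 374 genes (87.2%) raised at least 2-fold with tunicamycin also passed as higher without it, beside 10.5% of all genes. Of the 320 genes (3.1%) that fell at least 2-fold without tunicamycin, 141 (44.1%) also passed as lower with it, beside 7% of all genes, 172 did not pass and 7 passed as higher. A gene chosen by its change in one comparison tends to show a smaller one in the other, so these shares are descriptions. The difference itself, called the interaction here (the effect of LPS in stressed cells minus its effect in unstressed cells), passed for 347 genes (3.37%), 145 positive (1.41%) and 202 negative (1.96%). Without tunicamycin replicate 3 it passed for 228. The neutrophil markers, below 50 FPKM in the 6 libraries given tunicamycin, summed to 105 to 146 FPKM in control cells and 221 to 349 FPKM with LPS alone, and all 7 that were tested had an interaction below 0 (median -0.92), of which 0 passed. The stromal markers, in the opposite order, summed to 17.05 to 22.6 FPKM in control cells and 21.3 to 28.2 FPKM with LPS alone. The part of these cells in the interactions was not tested.

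**Figure D1:**
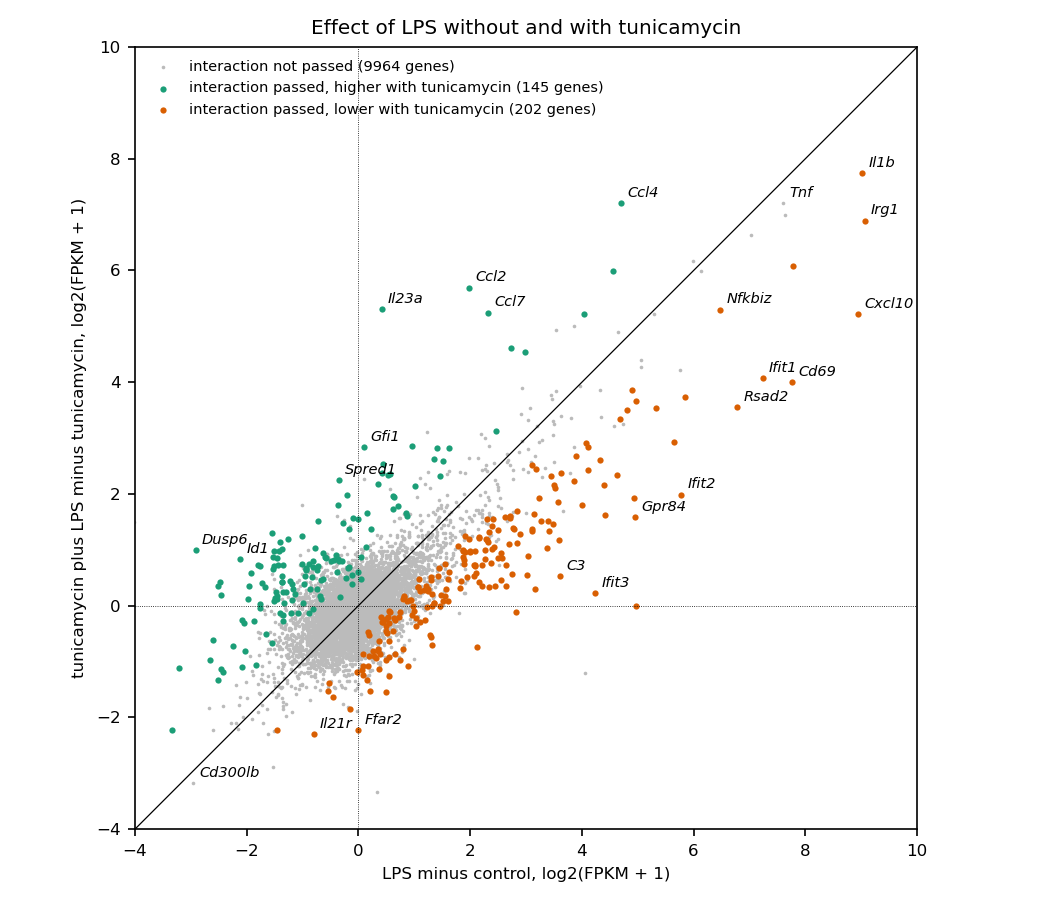
Each point is 1 of the 10311 genes tested, with the LPS effect without tunicamycin on the x axis and with tunicamycin on the y axis, both as differences of mean log2(FPKM + 1) between 3 and 3 libraries, and the diagonal marks equal effects. The 145 genes with a positive interaction lie above the diagonal, among them Il23a, Ccl2 and Ccl7, and the 202 with a negative one below it, among them Cxcl10, Ifit3 and Cd69.

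The mRNA levels of LPS-sensing genes changed in both directions. Of 25 tested genes of TLR4 sensing and signalling, 10 rose and 1 fell in stressed cells, beside 8.69% higher and 7% lower among all genes tested. Their median log2 change was 0.26, beside -0.01 over all genes tested. Cd14, the co-receptor that hands LPS to TLR4, was at 131, 141 and 132 FPKM in the 3 tunicamycin libraries and at 1188, 1095 and 1267 FPKM with both agents. The groups lay far apart, at a log2 difference of 3.13 ± 0.09 (SE, n = 3 and 3 libraries, adjusted p = 1.1e-13), and the rise was larger than the 2.47 of cells without tunicamycin, by an interaction of 0.66 ± 0.13 (adjusted p = 0.0067) that limma without a trend in the variance did not call. Tlr4 itself went down, from 17.4, 19.3 and 21.2 FPKM to 6.98, 12.3 and 7.35 FPKM, by -1.08 ± 0.19 (adjusted p = 7.5e-04), and without tunicamycin by -1.73. Its interaction of 0.65 ± 0.27 did not pass (adjusted p = 0.25). Tlr2, the receptor for bacterial lipopeptides, rose from 46.7, 44.5 and 49.5 FPKM to 643, 714 and 730.4 FPKM, by 3.86 ± 0.12. All 3 of its libraries with both agents were above those without LPS by more than the spread within either group, but the rise was smaller than the 4.90 without tunicamycin (interaction -1.04 ± 0.17, adjusted p = 0.0012). Peli1, a ubiquitin ligase of the MyD88 and TRIF branches, rose by 2.96 ± 0.17, and Irak3, an IRAK family member without kinase activity that holds the pathway back, by 1.23 ± 0.17.

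NF-kB genes rose nearly throughout. The NF-kB proteins are held in the cytoplasm by inhibitors of the I-kappa-B type, whose genes are in turn NF-kB targets. Of 19 subunits, inhibitors and adaptors, 16 rose, 0 fell and 3 did not pass, beside 8.69% higher and 7% lower among all genes tested. The median log2 change was 1.56 in stressed cells and 2.72 without tunicamycin. Nfkbia, the inhibitor I-kappa-B-alpha, was at 66.04, 62.3 and 66.7 FPKM under tunicamycin and at 920.2, 989 and 1123 FPKM with both agents, a difference of 3.93 ± 0.09 (adjusted p = 1.2e-14). Without tunicamycin it went from 73.3, 63.99 and 72.6 FPKM to 1172, 1093 and 1038 FPKM, and the interaction was -0.02 ± 0.13 (adjusted p = 0.96), so that a difference between the responses was not detected. For Tnfaip3, the ubiquitin-editing inhibitor A20, the 3 libraries rose from 11.99, 12.3 and 12.6 FPKM to 179.7, 194 and 169 FPKM, by 3.77 ± 0.17, with an interaction of 0.33 ± 0.24 that did not pass (adjusted p = 0.58). Nfkbiz, which encodes the nuclear protein I-kappa-B-zeta needed for secondary response genes, showed the largest rise of the list, from 3.19, 4.06 and 2.98 FPKM to 153, 192 and 172 FPKM (5.30 ± 0.18). Its level before LPS was higher under tunicamycin than in control cells (0, 0.09098 and 0.191 FPKM), and its interaction was negative at -1.18 ± 0.25 (adjusted p = 0.013), a call lost with quantile normalization and without LPS replicate 2. Traf1, an adaptor of the TNF receptor family, rose by 4.40 ± 0.27. In all, 10 of the 19 genes passed with a negative interaction and 0 with a positive one, beside 1.96% and 1.41% of all genes tested. Each of those 10 (Bcl3, Birc3, Nfkb2, Nfkbib, Nfkbid, Nfkbie, Nfkbiz, Relb, Tnip1 and Traf2) had a higher mean under tunicamycin than in control cells, and 7 of the 10 also had a higher mean with both agents than with LPS alone, so for these 7 the rise was smaller while the end level was not lower.

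The bases before the start of Cxcl2 and Nfkbia are shown because both genes keep a strong rise in stressed cells and both windows hold the NF-kB consensus, in capitals. The windows are the 250 bases before the RefSeq start of the gene on GRCm38.p6, read 5′ to 3′ on the strand of the gene.
Cxcl2 promoter, chr5:90903649-90903898, + strand: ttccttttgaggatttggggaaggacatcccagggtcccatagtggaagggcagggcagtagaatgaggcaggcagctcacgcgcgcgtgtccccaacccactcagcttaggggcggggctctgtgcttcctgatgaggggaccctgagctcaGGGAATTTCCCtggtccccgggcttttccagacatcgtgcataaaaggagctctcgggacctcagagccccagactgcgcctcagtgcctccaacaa
Nfkbia promoter, chr12:55492648-55492897, - strand: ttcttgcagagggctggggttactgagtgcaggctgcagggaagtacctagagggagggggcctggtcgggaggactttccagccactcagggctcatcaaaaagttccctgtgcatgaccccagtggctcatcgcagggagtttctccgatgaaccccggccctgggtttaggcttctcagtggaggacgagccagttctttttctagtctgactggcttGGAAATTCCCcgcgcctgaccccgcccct
In Cxcl2 the consensus matched 97 to 88 bases before the start on the + strand and, overlapping it, 96 to 87 bases before on the other, and in Nfkbia 29 to 20 bases before the start. Searched on both strands of the same window, the NF-kB consensus was found in 22% of the 304 genes raised at least 2-fold in stressed cells that have a window, in 10.2% of the 186 genes lowered as much, in 10.4% of the 8370 tested genes with a window and in 8.23% of all 27025 genes of the promoter table. Of the 15 largest rises in stressed cells, Cxcl1 and Il6 also had a match. Il1b, Tnf, Il1a, Irg1, Ptgs2 and Ccl3 had none in their windows, and the others have no window. A match is a description of the letters and not evidence of binding.

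Cytokine genes rose in number as they did without tunicamycin. Of 22 tested, 17 rose and 0 fell in each comparison. Among all genes tested 8.69% were higher and 7% lower with tunicamycin, and 10.5% and 7.86% without. The median log2 change of the list was 2.56 with tunicamycin and 2.10 without, and the median interaction 0.02. Tnf, the early inflammatory cytokine, was at 6.58, 6.21 and 5.52 FPKM under tunicamycin and reached 1177, 977 and 988 FPKM with both agents (7.20 ± 0.16, adjusted p = 6.7e-15). With LPS alone it reached 692, 813 and 723 FPKM, and the interaction of -0.39 ± 0.23 did not pass (adjusted p = 0.46). Il1b, the precursor of interleukin-1 beta, had the largest rise in the table for these cells, from 0.168, 0.455 and 0.434 FPKM to 347, 271 and 253 FPKM (7.75 ± 0.15). LPS alone took it to 815, 784 and 819.7 FPKM, above every library with both agents, and the interaction was -1.27 ± 0.21 (adjusted p = 0.0015), though with a pseudocount of 0.1 it no longer passed (adjusted p = 0.27). Il1a rose from 1.84, 1.85 and 2.76 FPKM to 361, 473 and 368 FPKM and Il27, the p28 subunit of interleukin-27, from 0 in all 3 tunicamycin libraries to 91.5, 43.5 and 90.8 FPKM.

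Il23a, Il6 and Il12b rose from near 0 with both agents, and Il12a, the p35 subunit of interleukin-12, did not pass, at a mean of 0.69 FPKM (0.59, adjusted p = 0.19). Il23a, the p19 subunit of interleukin-23 (chr10:128296139-128298752, mm10), was at 0, 0.266 and 0.591 FPKM under tunicamycin and at 56.5, 48.6 and 43.1 FPKM with both agents. In control cells it was listed at 0 in all 3 libraries and with LPS alone at 0.519, 0.186 and 0.3097 FPKM. Being below 1 FPKM in 9 of the 12 libraries, it entered the test only through the group where it is high. Its adjusted p-values therefore describe it and are not separate support. Its change was 5.31 ± 0.23 in stressed cells (adjusted p = 2.7e-11) and 0.41 without tunicamycin (adjusted p = 0.25), which makes its interaction of 4.90 ± 0.32 (adjusted p = 1.3e-07) the largest positive one of the genes named here. Il6 went from 0.534, 0.694 and 1.104 FPKM to 80.4, 60.1 and 55.5 FPKM (5.22 ± 0.22), all above the 12.5, 19.6 and 19.3 FPKM with LPS alone. The interaction of Il6, 1.17 ± 0.31, passed only at the threshold (adjusted p = 0.0496) and turned to -0.38 (adjusted p = 0.80) with a pseudocount of 0.1. Control cells were at 0.1203, 0 and 0.123 FPKM. Il12b, the p40 subunit shared by interleukins 12 and 23, was at 0.677, 0.845 and 0.466 FPKM and then at 126, 21.5 and 41.2 FPKM (4.90 ± 0.48). The first of those 3 libraries was well above the other two, and the LPS libraries (20.97, 14.6 and 50.6 FPKM) overlap with them. Il10, the main anti-inflammatory cytokine, was listed at 0 in all 3 libraries with both agents and at 0.815, 0.877 and 1.84 FPKM with LPS alone, too low to be tested. Ifnb1, interferon beta, was listed at 0 in the 3 tunicamycin libraries and at 3.73, 4.76 and 0 FPKM with both agents. One library with both agents thus overlaps with those without LPS, and its call (adjusted p = 0.028) was lost in 8 of the alternative analyses.

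Most chemokines rose in stressed cells, and a difference from the other cells passed for some, in either direction. Of 17 tested, 12 rose and 0 fell with tunicamycin, against 15 and 0 without. Among all genes tested 8.69% were higher and 7% lower with tunicamycin, and 10.5% and 7.86% without. The interaction was positive for 4, negative for 4 and did not pass for 9, beside 1.41% positive and 1.96% negative among all genes tested. The median log2 change was 4.27 with tunicamycin and 2.75 without, but gene by gene the median interaction was -0.38, with 12 of the 17 below 0 and 5 above, so the list as a whole did not rise more in stressed cells. Ccl2 and Ccl7, ligands of CCR2 that draw monocytes, lie next to each other on chromosome 11 (chr11:82035571-82037453 and chr11:82045712-82047525, mm10). Ccl2 was at 379, 604 and 454 FPKM in control cells, at 16.3, 18.8 and 13.6 FPKM under tunicamycin and at 907, 853 and 890.4 FPKM with both agents, a rise of 5.69 ± 0.15 (adjusted p = 2.9e-14). LPS alone gave 1622, 2156 and 1853 FPKM, a rise of 1.99 from a much higher level, so that the interaction was 3.71 ± 0.21 (adjusted p = 2.7e-08) while every library with both agents stayed below every library with LPS alone. Ccl7 showed the same order of groups, with 28.2, 32.6 and 30.3 FPKM under tunicamycin, 1314, 1161 and 1095 FPKM with both agents and 2115, 3020.03 and 2486 FPKM with LPS alone (interaction 2.93 ± 0.19, adjusted p = 1.3e-07).

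Ccl3 and Ccl4, which attract macrophages and T cells, are also neighbours on chromosome 11. Ccl4 rose from 33.3, 56.1 and 46.5 FPKM to 6901, 6308 and 6833 FPKM (7.20 ± 0.14), and from 279, 356 and 316 FPKM to 7612, 9000.1 and 8104 FPKM without tunicamycin (interaction 2.50 ± 0.20, adjusted p = 1.1e-06). Ccl3 rose from 39.1, 40.8 and 43.02 FPKM to 3628, 2038 and 2557 FPKM (5.99 ± 0.14, interaction 1.44 ± 0.20). For all 4 of these genes the mean under tunicamycin was below that of control cells, by a median log2 difference of -3.41, and the mean with both agents was below that with LPS alone, by a median of -0.71. Of the neutrophil-attracting ligands of CXCR2, Cxcl2 rose from 3.27, 3.95 and 2.33 FPKM to 534, 347 and 374 FPKM (6.64 ± 0.18), and all 3 libraries with both agents were above the 211, 187 and 232 FPKM with LPS alone. Cxcl1 rose from 2.403, 5.76 and 7.32 FPKM to 544, 338 and 319 FPKM (6.08 ± 0.26), where the first library with both agents stood highest. Ccl5, a T cell attractant made late in the response, was at 5.31, 9.65 and 7.42 FPKM and at 1020.3, 108 and 259 FPKM with both agents (5.21 ± 0.62), so its level varied several-fold between replicates, and the libraries with LPS alone (85.7, 80.8 and 270.04 FPKM) overlap with them.

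**Figure D2:**
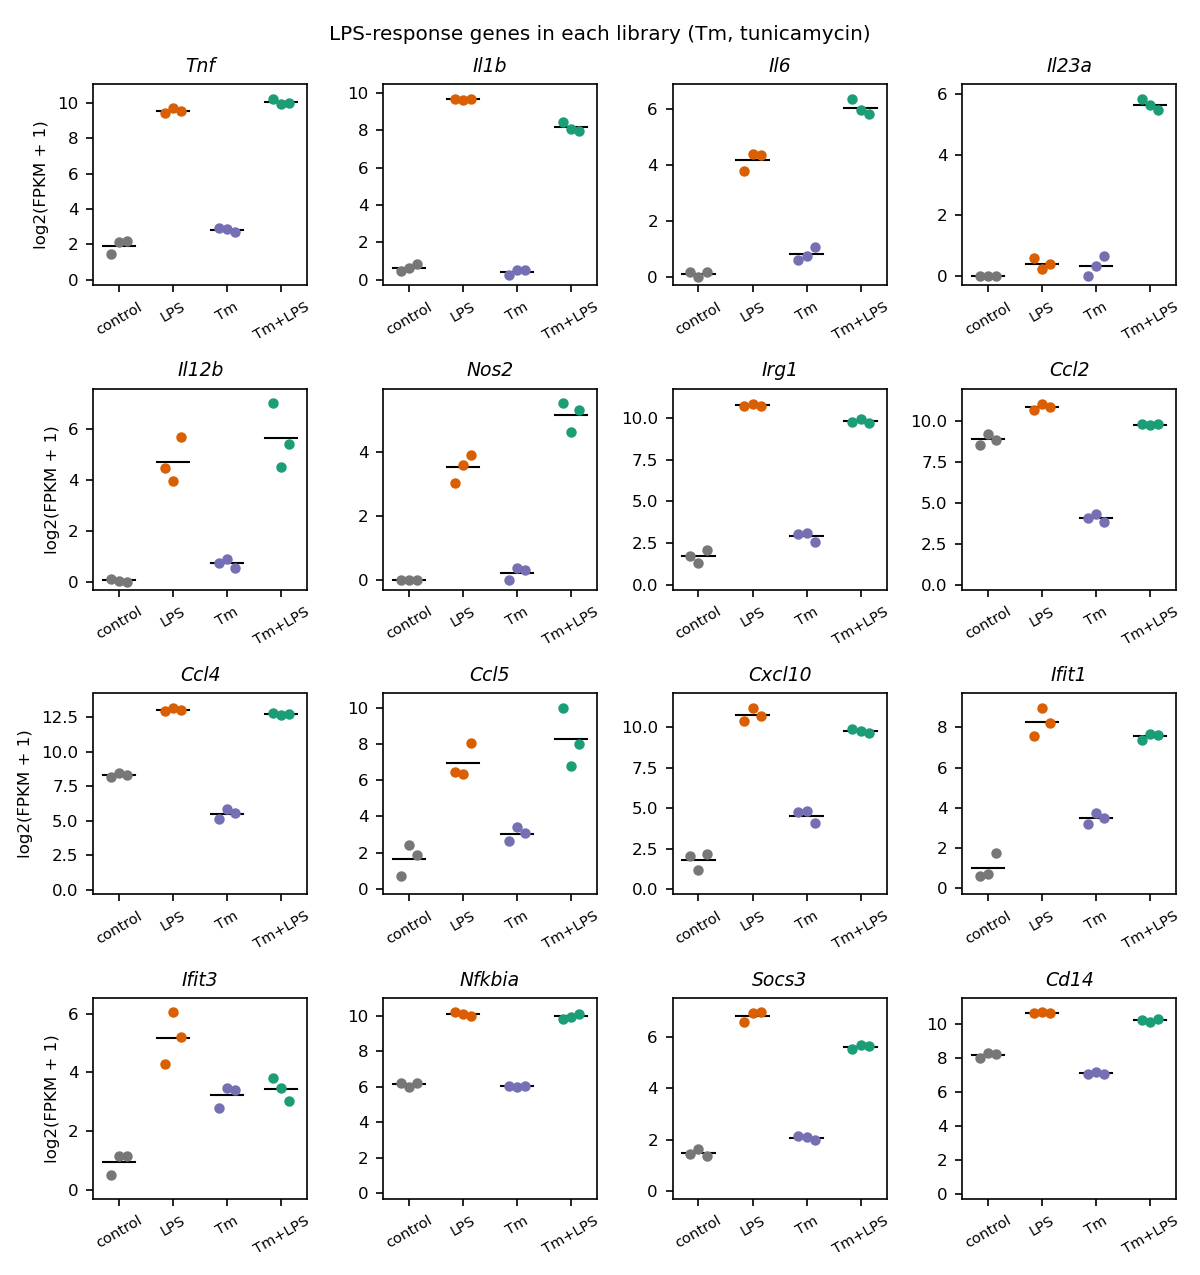
Points give log2(FPKM + 1) of 16 genes in each of the 12 libraries (control, LPS, Tm for tunicamycin and Tm+LPS for both agents) and bars the mean of the 3 libraries of a group. Il23a is high only in the libraries with both agents, Ccl2 and Ccl4 start lower under tunicamycin than in control cells, and Cxcl10 and Ifit3 start higher.

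A share of the interferon-stimulated genes rose less than without tunicamycin. These genes are switched on by IRF3 directly or by interferon through the factor ISGF3, which binds the interferon-stimulated response element (ISRE). Of 38 tested, 20 rose and 0 fell with tunicamycin against 28 and 0 without it. Among all genes tested 8.69% were higher and 7% lower with tunicamycin, and 10.5% and 7.86% without. The median log2 change of the list was 0.76 against 1.92, with a median interaction of -0.91. The interaction passed for 11 of the 38, all negative, beside 1.96% negative among all genes tested. Cxcl10, a chemokine induced by interferon that attracts T cells, was at 3.08, 1.34 and 3.52 FPKM in control cells, 25.8, 27.1 and 16.3 FPKM under tunicamycin, 945, 862 and 815 FPKM with both agents and 1345, 2332 and 1623 FPKM with LPS alone. It thus still rose strongly in stressed cells (5.21 ± 0.23, adjusted p = 4.7e-11), but from a higher start and to a lower level than without tunicamycin (interaction -3.73 ± 0.33, adjusted p = 4.2e-06).

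The genes of the IFIT family, RNA-binding proteins that block the translation of viral RNA, rose less or did not pass. Ifit1 rose from 8.16, 12.5 and 10.2 FPKM to 164, 201 and 196 FPKM (4.07 ± 0.30), against a rise from 0.525, 0.658 and 2.37 FPKM to 192, 499.9 and 301 FPKM without tunicamycin (interaction -3.17 ± 0.43, adjusted p = 2.7e-04). Ifit2 rose by 1.99 ± 0.38, against 5.78. Ifit3 was at 5.87, 10.04 and 9.63 FPKM under tunicamycin and at 13.1, 10.01 and 7.17 FPKM with both agents, a difference of 0.22 ± 0.35 that did not pass (adjusted p = 0.74), and the groups overlapped. In the cells without tunicamycin Ifit3 went from 0.415, 1.23 and 1.21 FPKM to 18.7, 65.002 and 35.4 FPKM, and its interaction was -4.02 ± 0.49 (adjusted p = 1.1e-04). Ifit3 has a near-identical neighbour, Ifit3b, and how reads were shared between them is not known, so the level of either is uncertain.

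Other antiviral genes gave the same order. Rsad2 (viperin) rose from 14.98, 21.2 and 16.98 FPKM to 208, 252 and 192 FPKM (3.55 ± 0.32), below the 6.78 without tunicamycin (interaction -3.23 ± 0.45). Cmpk2, a mitochondrial nucleotide kinase next to it in the genome, rose by 1.93 ± 0.33 against 4.94 (interaction -3.01 ± 0.46), and Oasl1, a 2′-5′-oligoadenylate synthetase-like protein, by 3.74 ± 0.27 against 5.85 (interaction -2.11 ± 0.38). The guanylate-binding protein gene Gbp5 departed from this, with 0.603, 0.872 and 0.5197 FPKM under tunicamycin and 21.1, 21.6 and 18.9 FPKM with both agents (3.70 ± 0.26), all 3 above the 11.2, 6.03 and 14.96 FPKM with LPS alone, and an interaction of 0.23 ± 0.36 that did not pass (adjusted p = 0.84). For all 11 genes with a negative interaction the mean under tunicamycin was above that of control cells, by a median log2 difference of 1.59, and the mean with both agents was below that with LPS alone, by a median of -0.81. These 11 were chosen by the interaction, which is made of these differences, so the values only describe them. Over all 38 tested, the mean with both agents was below that with LPS alone in 24 and above it in 14. The median log2 difference there was -0.21. For Rsad2 the libraries with both agents overlap with those with LPS alone, at 187, 604 and 330 FPKM. They also overlap for Ifit1, for Cmpk2 (66.4, 78.8 and 60.5 FPKM against 54.9, 163 and 114 FPKM) and for Oasl1 (33.5, 40.9 and 34.9 FPKM against 39.6, 106 and 64.0 FPKM). For Ifit2 and Ifit3 they do not.

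The promoter windows of 3 of these genes are shown because they hold the ISRE letters (GAAA, 2 bases of any kind and GAAA again, on either strand) or the NF-kB consensus, in capitals.
Cxcl10 promoter, chr5:92348890-92349139, - strand: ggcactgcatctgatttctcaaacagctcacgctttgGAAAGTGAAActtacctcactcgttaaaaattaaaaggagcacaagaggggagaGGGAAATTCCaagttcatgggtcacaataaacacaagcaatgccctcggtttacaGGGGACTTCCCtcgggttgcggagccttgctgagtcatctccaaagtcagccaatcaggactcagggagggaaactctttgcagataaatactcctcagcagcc
Ifit1 promoter, chr19:34640639-34640888, + strand: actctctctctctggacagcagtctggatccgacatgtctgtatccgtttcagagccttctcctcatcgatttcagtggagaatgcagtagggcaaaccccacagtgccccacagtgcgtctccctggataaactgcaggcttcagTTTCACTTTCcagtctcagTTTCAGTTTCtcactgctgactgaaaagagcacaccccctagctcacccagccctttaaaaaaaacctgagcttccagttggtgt
Ifit3 promoter, chr19:34583279-34583528, + strand: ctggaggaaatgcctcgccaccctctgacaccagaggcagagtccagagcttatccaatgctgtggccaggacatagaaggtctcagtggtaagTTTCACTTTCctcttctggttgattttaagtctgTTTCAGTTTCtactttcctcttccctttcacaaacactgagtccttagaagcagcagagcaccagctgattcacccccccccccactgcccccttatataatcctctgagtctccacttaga
Cxcl10 has an ISRE match 213 to 204 bases before the start and NF-kB matches 159 to 150 and, overlapping each other, 104 to 94 bases before it. Ifit1 and Ifit3 each have 2 ISRE matches, at 104 to 95 and 85 to 76 and at 156 to 147 and 122 to 113 bases before the start, and no NF-kB match in this window. ISRE letters were found in 3.42% of the 8370 tested genes with a window and in 9.54% of the 304 raised at least 2-fold in stressed cells. Among the genes raised at least 2-fold without tunicamycin whose interaction was negative they were found in 16.7% of 120. Among the genes raised at least 2-fold with tunicamycin whose interaction was positive they were found in 3.03% of 33, which is 1 gene. The NF-kB consensus was found in 19.2% of the same 120 and in 18.2% of the same 33. Any bearing of these letters on the size of the rise was not tested.

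Of 17 interferon regulatory factors, STATs and BATF factors, 6 rose and 1 fell in stressed cells, beside 8.69% higher and 7% lower among all genes tested. Irf1, a factor for antiviral and inflammatory genes, rose from 45.2, 52.8 and 58.5 FPKM to 335, 329.7 and 346 FPKM (2.68 ± 0.14), less than the 3.89 without tunicamycin (interaction -1.21 ± 0.19, adjusted p = 0.0012), although the end levels with LPS alone were 279, 369.7 and 298 FPKM. Stat5a, which acts downstream of growth factor cytokines, rose from 4.17, 4.602 and 5.13 FPKM to 26.96, 24.2 and 36.2 FPKM (2.40 ± 0.19), and its interaction did not pass (0.10 ± 0.27). Batf rose by 1.24 ± 0.23.

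Immediate early genes, which growth factor and stress signals switch on within minutes, moved in both directions. Of 22 tested, 8 rose and 2 fell with tunicamycin, beside 8.69% higher and 7% lower among all genes tested. Without tunicamycin 8 rose and 6 fell, beside 10.5% and 7.86% of all genes. The interaction was positive for 6 and negative for 5, beside 1.41% and 1.96% of all genes. Junb, an AP-1 subunit, rose from 68.9, 84.7 and 75.2 FPKM to 209.6, 224 and 243 FPKM (1.55 ± 0.09), less than the 2.41 without tunicamycin (interaction -0.85 ± 0.13). Ier3 likewise rose by 1.60 ± 0.15 against 2.71. Ier5 went the other way, from 8.01, 8.55 and 7.51 FPKM to 29.8, 29.3 and 27.3 FPKM (1.72 ± 0.16) against a rise of 0.61 (interaction 1.11 ± 0.23, adjusted p = 0.0096). Klf4, a zinc-finger factor of monocyte differentiation, was at 4.74, 5.33 and 4.95 FPKM under tunicamycin and fell to 0.7897, 1.18 and 2.35 FPKM, while the 6 libraries without tunicamycin were all below 1 FPKM. Klf4 would not have entered the test without the tunicamycin group, where it is high, so its call is a description and not separate support.

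Most feedback inhibitors were induced, and their interactions passed in both directions. Of 23 tested, 17 rose and 0 fell with tunicamycin, against 16 and 6 without. Among all genes tested 8.69% were higher and 7% lower with tunicamycin, and 10.5% and 7.86% without. The median log2 change of the list was 1.31 with tunicamycin and 0.91 without, and the median interaction -0.02. The interaction was negative for 5 (Dusp2, Socs1, Socs3, Tnip1 and Zfp36) and positive for 4 (Dusp6, Il1rn, Trib1 and Zfp36l2). Among all genes tested these shares were 1.96% and 1.41%. Socs3, which blocks signalling of interleukin-6 type receptors, rose from 3.39, 3.25 and 2.94 FPKM to 44.2, 49.8 and 48.7 FPKM (3.53 ± 0.15), where LPS alone gave 93.9, 119 and 122 FPKM (interaction -1.79 ± 0.21, adjusted p = 6.9e-05). Zfp36 (tristetraprolin), which hastens the decay of Tnf and other AU-rich mRNAs, rose from 20.7, 19.98 and 20.6 FPKM to only 37.7, 45.4 and 47.2 FPKM (1.05 ± 0.13), where LPS alone gave 144, 205 and 188 FPKM (interaction -1.37 ± 0.18, adjusted p = 2.7e-04). For both genes every library with both agents was below every library with LPS alone. Zc3h12c, a relative of the RNase regnase-1, rose by 3.30 ± 0.20 with no detected interaction (-0.18 ± 0.29).

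The enzymes of the activated macrophage were mostly raised. Of 24 tested, 16 rose and 0 fell, beside 8.69% higher and 7% lower among all genes tested. The median log2 change was 0.98 with tunicamycin and 1.46 without. Irg1 (current symbol Acod1), which makes itaconate, rose from 7.43, 7.55 and 4.91 FPKM to 858, 986 and 842 FPKM (6.89 ± 0.18), below the 1693, 1889 and 1691 FPKM with LPS alone (interaction -2.17 ± 0.25, adjusted p = 5.4e-05). Nos2, the inducible nitric oxide synthase, was at 0, 0.297 and 0.258 FPKM under tunicamycin and at 45.5, 23.8 and 38.9 FPKM with both agents (4.93 ± 0.26), all above the 7.31, 11.2 and 14.2 FPKM with LPS alone. Its interaction of 1.40 ± 0.37 missed the threshold (adjusted p = 0.052), and passed in 4 of the alternative analyses. Ptgs2 (cyclooxygenase-2), the inducible enzyme of prostaglandin synthesis, rose from 0.923, 2.03 and 1.44 FPKM to 142, 162 and 157 FPKM (5.99 ± 0.25), and its interaction was -0.13 ± 0.36. Lcn2, which binds bacterial siderophores, rose by 2.61 ± 0.27.

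Most surface and costimulatory molecules rose as well. Of 22 surface and costimulatory genes, 17 rose and 0 fell, beside 8.69% higher and 7% lower among all genes tested. The median log2 change was 1.62 with tunicamycin and 2.34 without. The interaction was negative for 8 and positive for 1, beside 1.96% and 1.41% of all genes. Cd40, the receptor for T cell help, rose from 34.4, 32.98 and 33.4 FPKM to 461, 272 and 369.6 FPKM (3.38 ± 0.20). Cd83, a marker of mature antigen-presenting cells, rose from 61.2, 76.4 and 70.3 FPKM to 777, 749 and 741 FPKM (3.43 ± 0.12). For both genes all 3 libraries with both agents were above those with LPS alone, at 129, 136 and 199.8 FPKM for Cd40 and 284, 255 and 313 FPKM for Cd83, while their interactions did not pass. The same order held for Ccrl2, a chemerin-binding receptor that does not signal by itself, which rose from 41.9, 38.2 and 39.7 FPKM to 608, 585 and 585 FPKM (3.86 ± 0.11), above the 226, 291 and 244 FPKM with LPS alone. Cd69, an early activation antigen, rose from 8.73, 10.6 and 15.98 FPKM to 212, 179 and 204 FPKM (4.00 ± 0.24), against a rise of 7.76 without tunicamycin (interaction -3.76 ± 0.34, adjusted p = 4.5e-06). Gpr84, a receptor for medium-chain fatty acids outside this list, was already at 167, 180.1 and 154 FPKM under tunicamycin, rose to 481, 519 and 510.1 FPKM (1.59 ± 0.10) and had an interaction of -3.36 ± 0.14 (adjusted p = 4.3e-10), with 15.6, 19.99 and 17.2 FPKM in control cells. C3, complement component 3, was at 13.8, 19.9 and 22.3 FPKM and 38.7, 20.8 and 23.8 FPKM, which did not pass (adjusted p = 0.21), against a rise of 3.61 without tunicamycin.

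Of 28 inflammasome and cell death genes, 10 rose and 2 fell, beside 8.69% higher and 7% lower among all genes tested. Nlrp3, the sensor of the inflammasome that processes interleukin-1 beta, rose from 0.408, 0.536 and 0.409 FPKM to 12.7, 12.7 and 15.5 FPKM (3.33 ± 0.23), and Ripk2, a kinase that carries NOD receptor signals, by 2.44 ± 0.12. Bcl2a1d, which codes for an anti-apoptotic BCL-2 relative, went from 19.3, 24.5 and 23.8 FPKM to 168, 142 and 151 FPKM (2.72 ± 0.14). The Bcl2a1 genes are near-identical copies, so the split of reads among them is uncertain. No interaction passed for Nlrp3, Ripk2 or Bcl2a1d.

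**Figure D3:**
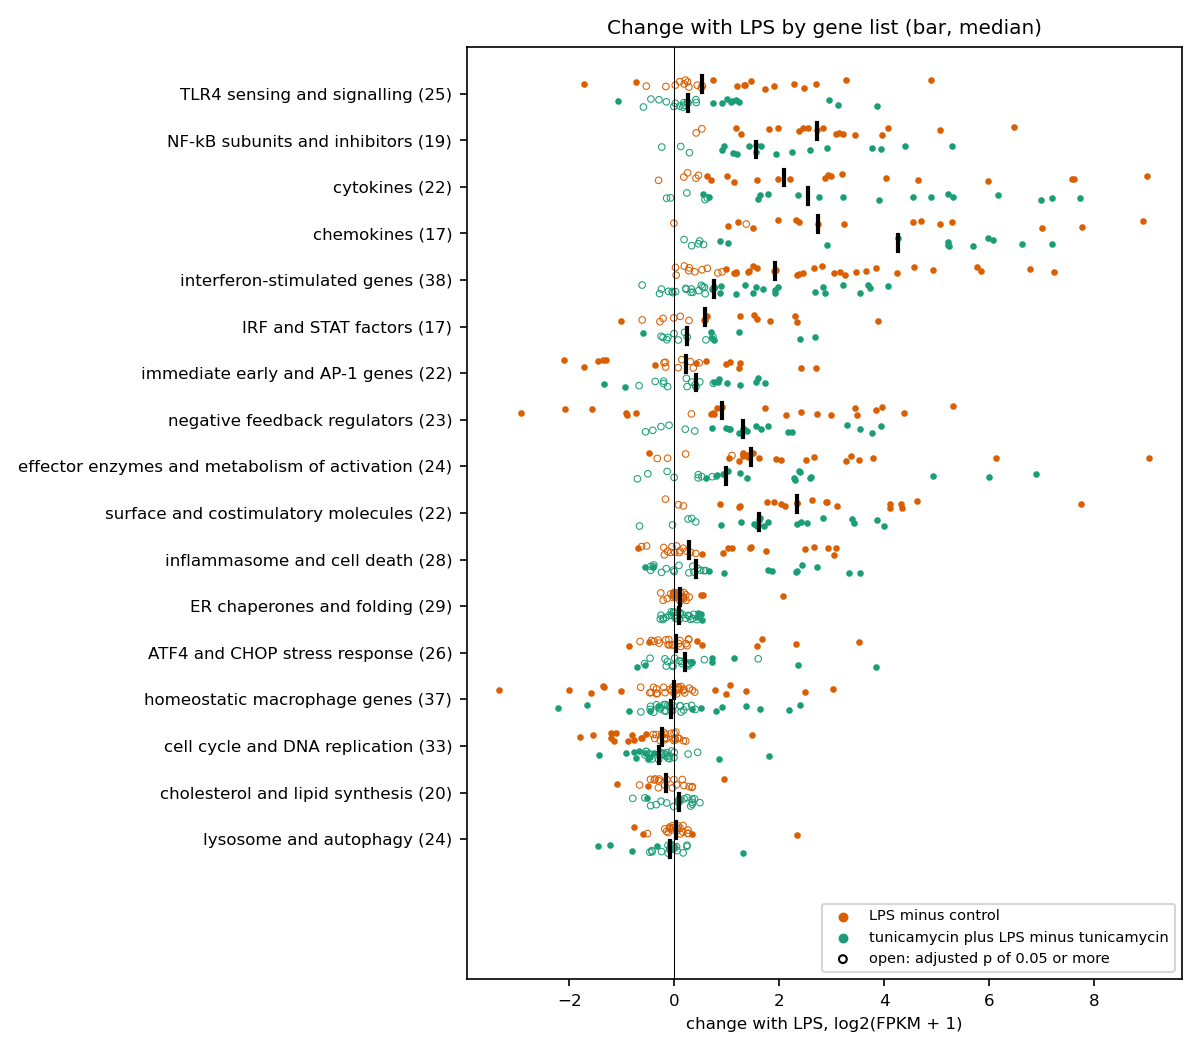
Each point is the log2 change of 1 gene with LPS, in orange without and in green with tunicamycin, filled where it passed the test, and black bars are the medians of the tested members of each list. The medians of interferon-stimulated genes are 0.76 with and 1.92 without tunicamycin, those of chemokines 4.27 and 2.75 although 12 of the 17 chemokines have an interaction below 0, and those of the ER and ATF4 lists lie between 0.03 and 0.20 in both.

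When LPS was added, ER chaperone genes passed at a share near that of all genes, while more of the ATF4 and CHOP branch rose. Among all 10311 genes tested 8693 did not pass. Of 29 ER chaperone and folding genes, 4 rose, 0 fell and 25 did not pass, beside 8.69% higher and 7% lower among all genes tested, with a median log2 change of 0.09. This share is near that of all genes. Hspa5 (BiP), the main ER chaperone, was at 765, 912 and 845 FPKM in control cells, at 7233, 10562 and 10986 FPKM under tunicamycin and at 14851, 11578 and 14163 FPKM with both agents. Its change with LPS, 0.51 ± 0.14 (adjusted p = 0.017), was lost without tunicamycin replicate 1, the lowest of the stressed libraries (adjusted p = 0.078), and in 5 other alternatives. Herpud1, which takes part in ER-associated degradation, rose from 915, 994 and 1031 FPKM to 1378, 1412 and 1438 FPKM (0.53 ± 0.12), less than the 2.07 without tunicamycin (interaction -1.55 ± 0.18, adjusted p = 5.3e-05), and its own rise was lost with quantile normalization (adjusted p = 0.092).

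Of 26 genes of the ATF4 and CHOP branch, 6 rose, 2 fell and 18 did not pass, with a median log2 change of 0.20. Among all genes tested 8.69% were higher and 7% lower, so the share that rose was larger in this branch. Atf4 was at 247, 212 and 223 FPKM under tunicamycin and at 255, 263 and 237 FPKM with both agents, a difference of 0.15 ± 0.12 that did not pass (adjusted p = 0.45) and was -0.10 with quantile normalization. Ddit3, which encodes CHOP, went from 1478, 1564 and 1760.3 FPKM to 1322, 861 and 1096 FPKM (-0.57 ± 0.15, adjusted p = 0.014), a fall that lost its call in 4 alternatives, among them without tunicamycin replicate 3 and without the second library with both agents. Trib3, a target of CHOP, fell from 368, 386 and 379 FPKM to 219.6, 229 and 239 FPKM (-0.72 ± 0.15). Ppp1r15a (GADD34), which restores translation by dephosphorylating eIF2-alpha, rose from 262, 288 and 273 FPKM to 652, 574 and 599 FPKM (1.14 ± 0.09), while the rise without tunicamycin was 2.32 (interaction -1.18 ± 0.13). Jdp2, an AP-1 repressor, rose from 22.1, 15.6 and 7.81 FPKM to 251, 155 and 253 FPKM (3.84 ± 0.30), and the stress cytokine gene Gdf15 from 98.8, 98.2 and 79.7 FPKM to 535, 372 and 541 FPKM (2.36 ± 0.15).

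The repressed side held receptors, transcription factors and cell cycle genes. Cd300lb, an activating receptor of the CD300 family, had the largest fall among genes with groups that do not overlap, from 54.8, 68.1 and 61.2 FPKM to 8.75, 4.81 and 4.69 FPKM (-3.18 ± 0.19, adjusted p = 2.8e-09), beside -2.97 without tunicamycin. Il21r, the receptor of interleukin-21, was at 17.8, 17.96 and 16.7 FPKM in control cells, at 44.9, 47.4 and 47.8 FPKM under tunicamycin and at 6.95, 10.3 and 9.19 FPKM with both agents (-2.30 ± 0.15). Its fall was larger than the -0.80 without tunicamycin (interaction -1.49 ± 0.21, adjusted p = 4.0e-04). Slc40a1 (ferroportin), the iron exporter, fell from 46.04, 52.6 and 63.2 FPKM to 11.2, 10.6 and 10.1 FPKM (-2.23 ± 0.13). Ffar2, a receptor for short-chain fatty acids, was listed at 0 in all 6 libraries without tunicamycin, at 6.66, 9.83 and 9.103 FPKM under tunicamycin and at 1.39, 0.381 and 1.49 FPKM with both agents (-2.22 ± 0.25). It would not have entered the test without the tunicamycin group, where it is high. Its calls therefore describe it and are not separate support.

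Genes of the homeostatic macrophage moved in both directions. LPS raised 8 of the 37 tested and lowered 5, beside 8.69% higher and 7% lower among all genes. The interaction was positive for 6 and negative for 3, beside 1.41% and 1.96% of all genes. Tfec, a macrophage relative of Tfeb and Mitf, rose the most, from 6.98, 5.84 and 9.66 FPKM to 38.5, 45.2 and 44.7 FPKM (2.39 ± 0.18). C5ar1, the receptor of complement C5a, rose from 36.8, 37.7 and 26.2 FPKM to 127, 191 and 149.9 FPKM (2.18 ± 0.15), still far below the 540.1, 613 and 592 FPKM of control cells (interaction 1.84 ± 0.21, adjusted p = 5.1e-05). Cebpa, a myeloid factor, fell from 7.51, 6.27 and 6.34 FPKM to 1.48, 1.6004 and 1.23 FPKM (-1.66 ± 0.20).

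Outside this list, 4 more of the genes named for the size of their fall are regulators or receptors of blood cells. Hhex, a homeobox factor, fell by -2.11 ± 0.21, and Tec, a kinase of immune receptor signalling, by -2.21 ± 0.20. Cnr2, the cannabinoid receptor of immune cells, fell by -2.22 ± 0.30, and Gab3, a docking protein of M-CSF receptor signalling, by -2.10 ± 0.25. No interaction passed for these 4 genes or for Cebpa.

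**Figure D4:**
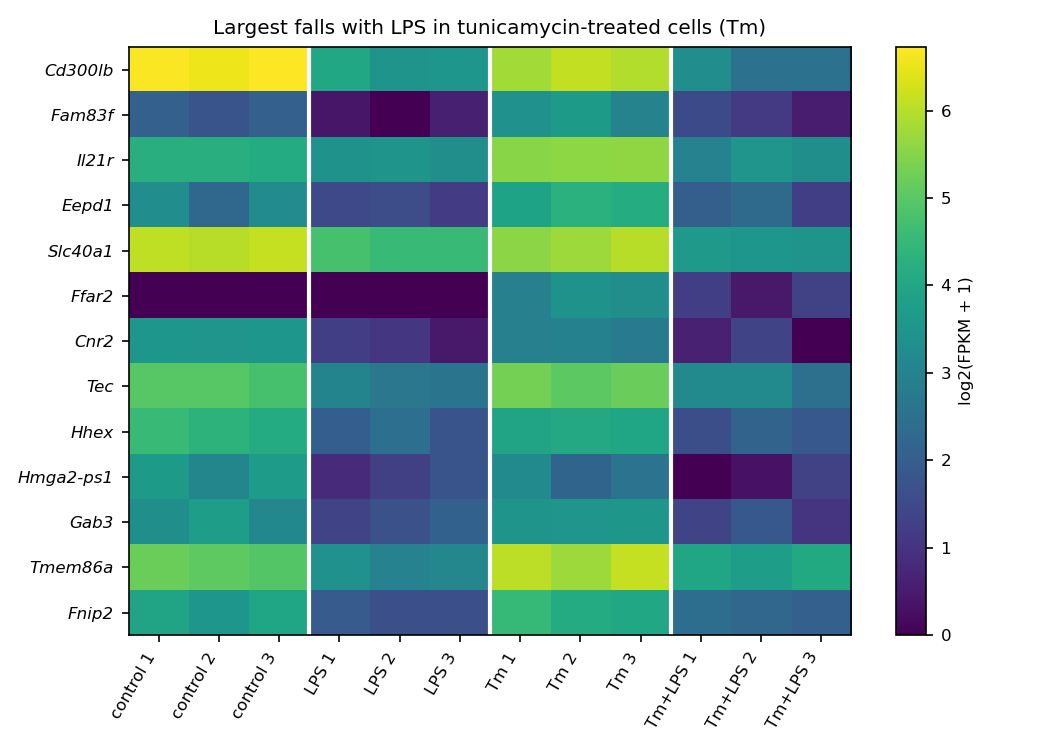
Colour gives log2(FPKM + 1) in each of the 12 libraries for 13 of the 15 genes with the largest falls in tunicamycin-treated cells, ordered by their change. In 12 of them the level also fell with LPS alone, and Ffar2 is listed at 0 in all 6 libraries without tunicamycin.

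Cell cycle genes fell in part. Of 33 tested, 10 fell and 2 rose in stressed cells, beside 7% lower and 8.69% higher among all genes tested. Without tunicamycin 12 fell and 1 rose, beside 7.86% and 10.5% of all genes. The median log2 change in stressed cells was -0.30, beside -0.01 over all genes. Ccne2 (cyclin E2), which drives entry into S phase, fell from 3.47, 4.102 and 3.11 FPKM to 0.618, 0.806 and 0.5904 FPKM (-1.45 ± 0.19), and Plk1, a mitotic kinase, from 22.97, 23.03 and 22.5 FPKM to 9.22, 16.7 and 10.1 FPKM (-0.92 ± 0.19). Cdkn1a (p21), an inhibitor of cyclin-dependent kinases, rose from 186, 172 and 177 FPKM to 640.3, 602 and 629 FPKM (1.80 ± 0.09). Of 24 lysosome and autophagy genes, 4 fell and 1 rose, beside 7% lower and 8.69% higher among all genes. Tfeb, the main transcription factor of lysosome genes, fell from 15.3, 18.99 and 15.9 FPKM to 6.803, 4.34 and 5.36 FPKM (-1.46 ± 0.20), and Sqstm1 (p62), an autophagy receptor, rose from 3529, 3118 and 3446 FPKM to 10212, 7172 and 7910.2 FPKM (1.31 ± 0.11), less than the 2.34 without tunicamycin. Rragd, a Rag GTPase of amino acid sensing at the lysosome, fell from 7.78, 8.69 and 9.51 FPKM to 3.35, 3.08 and 2.98 FPKM (-1.22 ± 0.23, adjusted p = 0.0014), while its change without tunicamycin, -0.18, and its interaction did not pass. Among 20 genes of cholesterol and lipid synthesis, 0 rose and 1 fell, which is near the share of all genes.

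Differences between the stressed and the other cells were of several kinds. Of the 202 genes with a negative interaction, 100 rose in both, 65 rose only in the test without tunicamycin and 26 passed, as lower, only in the test with it. Of the 145 with a positive interaction, 64 passed, as lower, only without tunicamycin, 37 rose only in the test with it, 21 rose in both and 12 fell in both. Among the 142 genes that rose at least 2-fold without tunicamycin and had a negative interaction, the mean under tunicamycin was above that of control cells in 134, by a median log2 difference of 1.05 over the 142, and the mean with both agents was below that with LPS alone in 98, by a median of -0.37. Among the 65 genes that fell at least 2-fold without tunicamycin and had a positive interaction, the mean under tunicamycin was below that of control cells in 63, by a median of -1.23, and the mean with both agents was above that with LPS alone in 48. These genes, like those counted by their interaction in the lists above, were chosen by a value that contains the difference in level before LPS, so the counts describe them and support nothing. Over all 10311 genes tested the mean under tunicamycin was above that of control cells in 5428 and below it in 4874.

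LPS moved 15 genes in opposite directions, 11 higher in stressed cells and lower without tunicamycin, and 4 the reverse. Among the 11 are Dusp6, a phosphatase that switches the kinase ERK off, and Etv5, an ETS factor, both known as targets of ERK signalling. Dusp6 was at 32.01, 40.2 and 32.7 FPKM in control cells and at 5.43, 2.405 and 3.87 FPKM with LPS alone, at 2.24, 2.68 and 2.86 FPKM under tunicamycin and at 5.53, 6.93 and 5.95 FPKM with both agents. Its change was 0.99 ± 0.22 in stressed cells (adjusted p = 0.0051) and -2.92 without tunicamycin, and all 9 libraries with an agent were far below control cells (interaction 3.90 ± 0.31, adjusted p = 1.1e-06). Etv5 went from 5.96, 6.56 and 3.43 FPKM to 9.13, 10.05 and 8.56 FPKM (0.73 ± 0.18) against -1.43, and Id1, which holds back factors of the helix-loop-helix type, from 0.7098, 1.54 and 0.667 FPKM to 2.73, 1.92 and 2.73 FPKM (0.83 ± 0.22) against -2.11. The rises of Etv5 and Id1 lost their calls without tunicamycin replicate 3 (adjusted p = 0.062 and 0.066), and that of Id1 also without tunicamycin replicate 1 (adjusted p = 0.056).

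Myc, the growth factor response gene, was at 13.8, 16.7 and 13.7 FPKM under tunicamycin and at 27.1, 26.3 and 28.5 FPKM with both agents (0.85 ± 0.19), and fell from 31.6, 38.5 and 37.6 FPKM to 18.1, 9.02 and 11.6 FPKM without tunicamycin (interaction 2.31 ± 0.27, adjusted p = 6.0e-05). Gcnt1, an enzyme of O-glycan branching, rose from 9.44, 10.9 and 12.2 FPKM to 21.1, 27.5 and 26.7 FPKM (1.14 ± 0.16) and fell from 21.3, 18.4 and 19.3 FPKM to 6.03, 7.82 and 6.67 FPKM without it (interaction 2.54 ± 0.23). Spred1, an inhibitor of the RAS and ERK pathway, rose from 5.96, 3.42 and 2.005 FPKM to 17.6, 21.9 and 22.5 FPKM (2.25 ± 0.28), where the change without tunicamycin, -0.35, did not pass. Gfi1, a transcriptional repressor of blood cells, behaved like Il23a. It had at most 0.21 FPKM in the 9 libraries that did not receive both agents and 6.21, 7.39 and 7.17 FPKM in the 3 that did (2.84 ± 0.21, interaction 2.74 ± 0.30, adjusted p = 4.1e-05). Like Il23a, it entered the test only through those 3 libraries. In the reverse direction Nmnat1, a nuclear enzyme of NAD synthesis, fell from 14.1, 15.1 and 9.87 FPKM to 6.13, 6.19 and 5.76 FPKM (-0.98 ± 0.19) and rose by 0.74 without tunicamycin (interaction -1.72 ± 0.27).

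**Figure D5:**
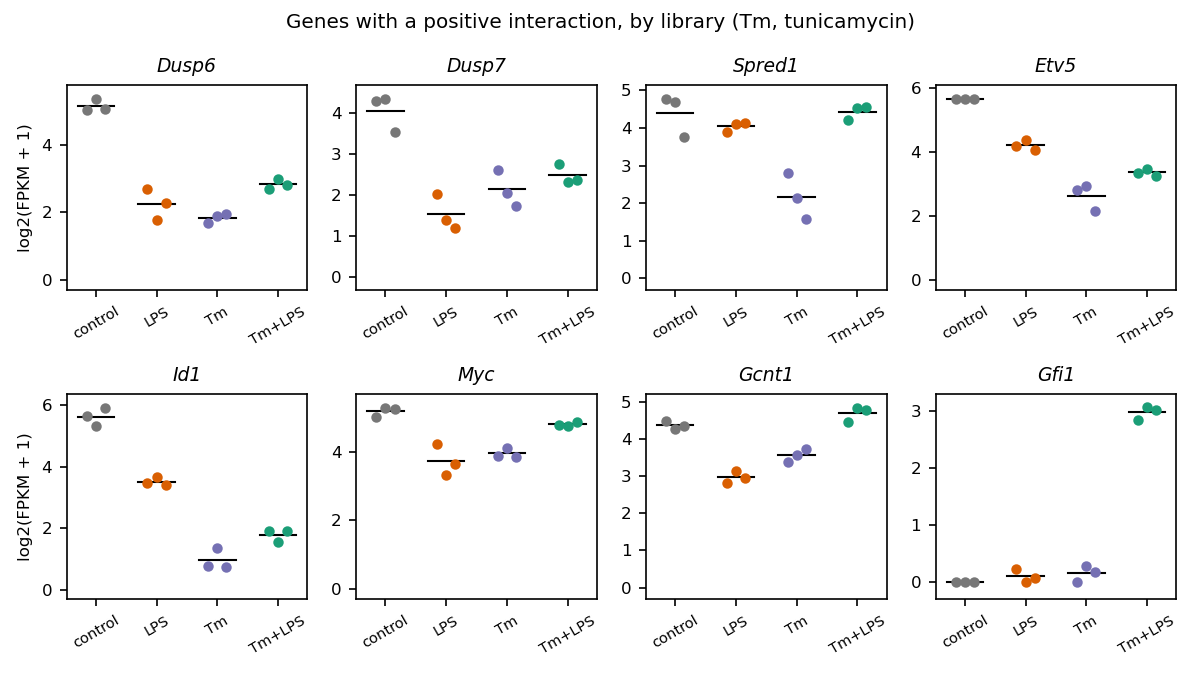
Points give log2(FPKM + 1) of 8 genes with a positive interaction in each of the 12 libraries and bars the group means of 3 libraries. Dusp6, Etv5, Id1, Myc and Gcnt1 fall with LPS in untreated cells and rise in tunicamycin-treated cells, and Gfi1 is above 1 FPKM only in the libraries with both agents.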

How the data were processed

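RNA-seq of mouse macrophages (12 libraries in 4 groups of 3) was deposited by the authors as 1 table of FPKM per gene and library. The submitters' processing notes name Cufflinks 2.2.1, TopHat2 2.0.13, SAMtools 0.1.19, Bowtie2 2.2.3 and the build mm10. The annotation, any scaling between libraries and the strand setting are not given in the sources used here. Read depth is unknown: between libraries, 7.07% to 19.0% of the values below 0.3 FPKM had a ratio within log2 0.02 of the modal one, so counts were not recovered and precision is given as the spread between replicates.

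Genes with at least 1 FPKM in at least 3 of the 12 libraries (10311) were fitted as log2(FPKM + 1) in R 4.3.3 by limma 3.58.1 with group means over all 12 libraries (eBayes with a trend in the variance). The contrasts were tunicamycin plus LPS against tunicamycin, LPS against control (the contrasts share no library), and their difference, the interaction. P-values were adjusted by Benjamini-Hochberg over all 10311 genes, with a threshold of 0.05. Differences are given as mean log2(FPKM + 1) ± SE, which understates the change of low genes. The procedure was tested on simulated data.

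The comparison and the 24 gene lists were chosen with earlier results of these data known. Genes were named by rule: the 15 largest rises and 15 largest falls with groups that do not overlap, up to 4 passing members with the largest change in each list, the 12 most positive and 12 most negative interactions, up to 10 genes with opposite calls, and 22 fixed genes. Of the 115 genes so named, most are described; 2 of the 15 largest falls are not reported here. Gene coordinates are from GENCODE M21 (23310 symbols matched) and promoter sequences from RefSeq on GRCm38.p6. The alternatives tried were another pseudocount, other low-value filters, other scaling, a replicate block, other variance priors, fits on fewer samples and leaving out each library. The labels do not say whether the replicate numbers pair the samples. Deviations of same-numbered libraries correlated at -0.04 to 0.09 over all genes tested in 18 pairs. Such a correlation over all genes cannot show that samples are unpaired, as a shared effect on some genes could go unseen. The replicate number was therefore used only in an alternative fit.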

Additional observations from a re-analysis of the deposited data

Results flagged for a closer look

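43 of the genes described above had an LPS effect that differed between cells with and without tunicamycin, by the test of the interaction in limma (adjusted p under the threshold over all genes tested). Among them, Il23a, Gfi1 and Ffar2 entered the test only through the group where each is high. For these genes the values are descriptions and not separate support. The values are log2 differences of the effect with tunicamycin less that without. Positive ones were found for the cytokine genes Il23a (4.90) and Il6 (1.17), for the chemokine genes Ccl2 (3.71), Ccl7 (2.93), Ccl4 (2.50) and Ccl3 (1.44), and for the receptors C5ar1 (1.84) and Cd14 (0.66). The regulators with a positive one were Dusp6 (3.90), Id1 (2.94), Gfi1 (2.74), Spred1 (2.61), Myc (2.31), Etv5 (2.17) and Ier5 (1.11), besides the glycosyltransferase gene Gcnt1 (2.54).

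Negative ones were found for the interferon-stimulated genes Ifit3 (-4.02), Ifit2 (-3.80), Rsad2 (-3.23), Ifit1 (-3.17), Cmpk2 (-3.01) and Oasl1 (-2.11) and for Cxcl10 (-3.73), Cxcl1 (-1.70), Il1b (-1.27), Irg1 (-2.17) and C3 (-3.08). Among receptors and transporters they were Cd69 (-3.76), Gpr84 (-3.36), Ffar2 (-2.22), Il21r (-1.49), Tlr2 (-1.04) and Slc40a1 (-0.77). Among regulators and other genes they were Socs3 (-1.79), Zfp36 (-1.37), Irf1 (-1.21), Nfkbiz (-1.18), Junb (-0.85) and Ier3 (-1.10) and Nmnat1 (-1.72), Herpud1 (-1.55), Ppp1r15a (-1.18) and Sqstm1 (-1.03). The interactions of Il6, Slc40a1 and Cxcl1 were called in fewer of the alternative analyses than the others named here. That of Il6 was lost when any control, LPS or both-agent library was left out, and without tunicamycin replicate 1 or 2. With a pseudocount of 0.1 it turned to -0.38, so its positive sign depends on the pseudocount.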

How the results depend on the processing

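Between other pseudocounts, filters, scalings, variance priors and sample sets, the number of genes higher with LPS in tunicamycin-treated cells was 736 to 900 (896 as reported), the number lower 578 to 943 (722) and the number of interactions 259 to 350 (347). Leaving out 1 of the 6 libraries given tunicamycin gave 658 to 842 higher and 410 to 703 lower genes, leaving out 1 of the control or LPS libraries, which enter the shared spread only, 840 to 915 higher and 684 to 740 lower, and leaving out any of the 12 gave 228 to 352 interactions, with the fewest lower genes without tunicamycin replicate 2 (410) and 3 (454) and the fewest interactions without tunicamycin replicate 3 (228). Of the LPS-induced genes 66.6% to 81.5% were also higher with tunicamycin. With the replicate number as a block, 897 genes were higher, 731 lower and 348 passed the interaction, and whether same-numbered samples belong together is not known. Of 90 genes described, 87 passed in tunicamycin-treated cells, and 80 of these kept direction and call in all alternatives run. Calls were lost in at least 1 alternative for Herpud1, Hspa5, Id1, Etv5, Ifnb1, Ddit3 and Klf4, and for the interactions of Il6, Slc40a1, Cxcl1, Nfkbiz, Il1b, Ffar2 and Cd14, where that of Il6 was lost with the replicate block (adjusted p = 0.068). Signs turned for Atf4 with quantile normalization (-0.10) and for the interaction of Il6 with a pseudocount of 0.1 (-0.38), and the cause was not tested. Of the 47 genes described whose interaction did not pass, its sign turned in at least 1 alternative for 16, among them Ptgs2, Stat5a, Gbp5 and Nfkbia, and it passed in at least 1 for 5 (Batf, Cd40, Gdf15, Klf4 and Nos2), so these are not called in either direction. Read depth, the scaling of the deposited values and reads shared by near-identical genes cannot be examined in this table.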

Other observations

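Some of the largest falls were in genes of none of the lists. Fnip2, a partner of folliculin in amino acid sensing at the lysosome, was at 21.7, 16.8 and 15.4 FPKM under tunicamycin and at 4.38, 3.66 and 3.21 FPKM with both agents, a fall of -1.99 ± 0.20 (SE, limma adjusted p = 1.5e-06) beside -2.06 without tunicamycin. Tmem86a, a lysoplasmalogenase, fell from 65.02, 52.7 and 69.2 FPKM to 14.9, 12.5 and 16.01 FPKM (-2.03 ± 0.16), with groups far apart. The interactions of both genes did not pass.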
